A study of Solanum tuberosum with 12 samples.

Results

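PotatoMir1005068308 and PotatoMir1005890965 are 2 mature miR171 sequences of potato that are placed on opposite arms of their precursors. They were taken by their identifiers from the deposited list of predicted miRNAs, where they had 3 of 324 loci and were 2 of 222 distinct mature sequences. The other sequences that the study names miR171 are PotatoMir1005435664, PotatoMir1005466259 and PotatoMir1005891017, with 1 locus each, and they were used for comparison. The list was made from 12 small RNA libraries of *Solanum tuberosum* group *Andigena* clone ADG573, with 3 biological replicates each of SD leaf, LD leaf, SD stolon and swollen stolon under short days. This clone forms tubers under short days (SD) and not under long days (LD). All plants were propagated *in vitro*, grown for 4 weeks under LD in a glasshouse and moved to SD or LD cabinets at 20 °C, and the labels give sampling after 8 days for every group, whereas the study's methods give later days for the stolons. All plants came from 1 clone, and leaf or stolon material was used. The deposited list pools the reads of all libraries and gives a single read number for each sequence. No error between replicates could be given, and tissues and day lengths were not compared here.

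miRNAs of plants are cut by a Dicer-like protein from a hairpin precursor as a duplex with short 3′ overhangs. One strand, the mature miRNA, guides an Argonaute protein to target RNAs, and the strand opposite to it is called the star sequence. miR171 is an old and widely conserved plant family. In *Arabidopsis* it guides the cleavage of transcripts of GRAS family transcription factors of the HAIRY MERISTEM group, which keep cells of the shoot meristem undifferentiated and take part in shoot branching.

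The mature sequences of the list are shown first, with the seed (bases 2 to 8 from the 5′ end) in capitals, because the seed separates the pair. The letters are those of the deposited list, which writes T for U.
PotatoMir1005068308: tATTGGCCtggttcactcaga
PotatoMir1005890965: tTGAGCCGcgtcaatatctct
PotatoMir1005435664: tGAGCCGAaccaatatcactc
PotatoMir1005466259: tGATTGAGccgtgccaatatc
PotatoMir1005891017: tTGAGCCGtgccaatatcacg
All 5 sequences were 21 nt in length and began with T, as did 34 of the 59 distinct 21 nt sequences of the list (57.6%). PotatoMir1005890965 and PotatoMir1005891017 had the same seed. The seeds of PotatoMir1005068308, PotatoMir1005435664 and PotatoMir1005466259 were each found in no other of the 5 mature sequences.

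The precursors are printed with the mature sequence in capitals, to show on which arm it lies. PotatoMir1005068308 formed the 5′ end of both of its precursors, and PotatoMir1005890965 formed the 3′ end of its precursor. The names MIR171A, MIR171C and MIR171B are those of RefSeq entries (assembly SolTub_3.0) with the same length and with both ends within 2 nt of the deposited positions. This match did not use the superscaffold, which the RefSeq table does not give.
MIR171A (PotatoMir1005068308): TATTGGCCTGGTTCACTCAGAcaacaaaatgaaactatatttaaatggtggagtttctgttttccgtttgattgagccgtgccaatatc
MIR171C (PotatoMir1005068308): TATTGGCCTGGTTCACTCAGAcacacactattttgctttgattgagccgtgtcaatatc
MIR171B (PotatoMir1005890965): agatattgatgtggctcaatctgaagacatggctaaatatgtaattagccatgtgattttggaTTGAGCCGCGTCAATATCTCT
In the same way the locus of PotatoMir1005466259 was matched to MIR171E, that of PotatoMir1005891017 to MIR171D and that of PotatoMir1005435664 to MIR479. The mature sequence was on the 5′ arm at both loci of PotatoMir1005068308 and on the 3′ arm at the locus of PotatoMir1005890965. It was also on the 3′ arm at the 3 other miR171 loci. In the whole list 167 of 324 loci (51.5%) had the mature sequence on the 5′ arm.

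Positions are those of the deposited list on the superscaffolds of the DM potato genome, whose assembly version is not given in the sources used here. The MIR171A precursor of 89 nt lies on the plus strand of PGSC0003DMB000000020 from 1766225 to 1766313, with the mature sequence from 1766225 to 1766245. The MIR171C precursor of 59 nt lies on the minus strand of PGSC0003DMB000000732 from 106307 to 106365, with the mature sequence from 106345 to 106365. The MIR171B precursor of 84 nt lies on the plus strand of PGSC0003DMB000000652 from 116544 to 116627, with the mature sequence from 116607 to 116627. RefSeq lists these loci as miRNA genes, and the protein-coding genes around them were not analysed here.

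PotatoMir1005068308 had 451 reads over all libraries, with a 95% Poisson interval of 410 to 495 reads. PotatoMir1005890965 had 65 reads (50.2 to 82.9). The ratio of the read numbers was 6.94, with an exact 95% interval of 5.34 to 9.14. The reads of PotatoMir1005068308 match 2 loci of the list and those of PotatoMir1005890965 match 1. Whether read number depends on the arm was not tested. PotatoMir1005068308 thus had the higher read number, and the intervals did not overlap. These intervals account for counting error alone, because the pooled list holds no error between replicates. They also take every read as independent, since PCR copies could not be recognised without molecular identifiers.

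Among the distinct sequences of the list PotatoMir1005068308 had rank 28 and PotatoMir1005890965 had rank 67 of 222 by read number. Medians were 17.5 reads for the whole set of sequences and 67 reads for the 21 nt class. The deposited list also holds sequences with fewer than 5 reads, which the study left out of its final set of miRNAs. In relation to the 954147 reads of the list, counted once per distinct sequence, PotatoMir1005068308 had 0.0473% (95% Wilson interval 0.0431 to 0.0518%) and PotatoMir1005890965 had 0.00681% (0.00535 to 0.00868%). Of the 964 reads of the 5 miR171 sequences, they had 46.8% and 6.74%.

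Read numbers of the other miR171 sequences were 213 for PotatoMir1005435664, 206 for PotatoMir1005466259 and 29 for PotatoMir1005891017. PotatoMir1005068308 was 2.12 times as abundant as PotatoMir1005435664, the next in the order (interval 1.80 to 2.50). PotatoMir1005435664 and PotatoMir1005466259 were not separated by counting error, with a ratio of 1.03 (0.850 to 1.26). PotatoMir1005890965 came next in the order and had 2.24 times the reads of PotatoMir1005891017 (1.43 to 3.6).

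**Figure D1:**
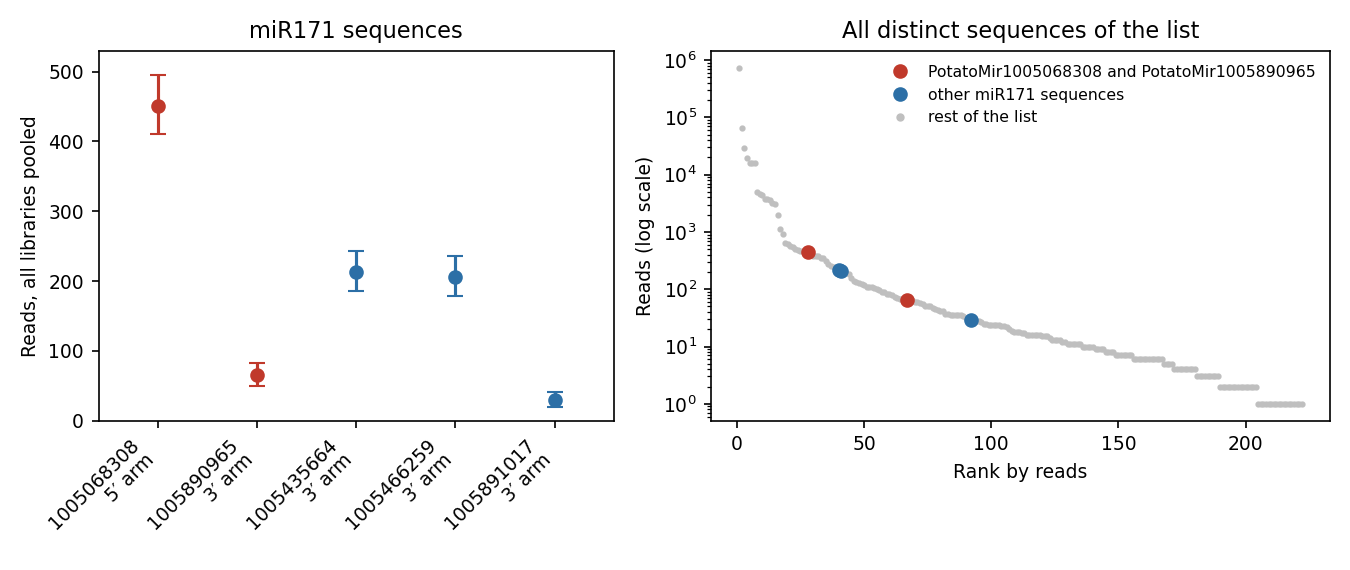
Left, reads of the 5 miR171 sequences over all pooled libraries, with 95% Poisson intervals and the arm of the precursor. Right, reads of all 222 distinct sequences on a log scale against their rank. PotatoMir1005068308, with 451 reads, is above the other miR171 sequences, whereas PotatoMir1005890965, with 65 reads, lies below 2 of them.

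Star sequences were read from the fold of each deposited precursor with RNAfold at 37 °C, cut so that each strand had a 3′ overhang of 2 nt. They are shown with bases 2 to 8 in capitals, because the star sequence of MIR171A proved to be a listed mature sequence.
Star of MIR171A: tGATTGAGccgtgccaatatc
Star of MIR171C: tGATTGAGccgtgtcaatatc
Star of MIR171B: aGATATTGatgtggctcaatc
The star sequence of MIR171A was identical over all 21 nt to PotatoMir1005466259, the mature sequence of MIR171E. The 206 reads of PotatoMir1005466259 therefore match 2 precursors of the list, and their origin cannot be told apart. Similarly, the 451 reads of PotatoMir1005068308 match the MIR171A and MIR171C precursors equally. PotatoMir1005068308 had 2.19 times the reads of PotatoMir1005466259 (interval 1.85 to 2.59), but a ratio of the strands of MIR171A alone could not be formed. The star sequences of MIR171C and MIR171B were not listed as mature sequences, and their read numbers were not analysed here. Neither mature sequence of the pair was found in any other precursor of the list, on either strand.

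The 3′ strands of MIR171A and MIR171C differed at a single base, C14T, counted from the 5′ end of the star sequence of MIR171A, where the first letter is its base and the second that of MIR171C. From their 5′ ends the MIR171A and MIR171C precursors were identical over 23 nt, which takes in the whole mature sequence. From their 3′ ends they had this difference alone in 23 nt. Between these ends MIR171A had 43 nt and MIR171C had 13 nt, which made up the whole difference in length of 30 nt. The ends that hold the duplex were therefore nearly identical, whereas the stretch between them differed in length. MIR171A had 33 base pairs and a terminal loop of 5 nt, and MIR171C had 21 base pairs and a terminal loop of 10 nt.

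Strands of the hairpins were compared by their identical bases. The mature sequences PotatoMir1005068308 and PotatoMir1005890965 shared 9 of 21 bases in the best alignment without gaps. PotatoMir1005890965 shared 17 bases with the star sequence of MIR171C and 16 bases with that of MIR171A. Over the 18 nt that overlapped, C9T was the only difference from MIR171C, and C9T and T11C were those from MIR171A, counted from the 5′ end of PotatoMir1005890965. On the opposite arm the star sequence of MIR171B shared 13 of 18 overlapping bases with PotatoMir1005068308. With gaps allowed this value stayed at 13, but the mature sequences then also shared 13 bases, and PotatoMir1005068308 shared 14 and 15 bases with the star sequences of MIR171A and MIR171C. The likeness of the 5′ strand of MIR171B to PotatoMir1005068308 was thus not separated from that of opposite arms. With the 5′ star sequence of MIR171E, PotatoMir1005068308 shared 16 of 21 bases, also with gaps. With those of MIR479 and MIR171D it shared 13 bases without gaps and 14 with gaps. On the 3′ arm the values of 16 and 17 bases for PotatoMir1005890965 were the same with gaps. The sequence that is mature in MIR171B is thus the counterpart of the sequence that is the star in MIR171A and MIR171C.

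The duplexes of the hairpins were in different registers. Aligned to the star sequence of MIR171A, PotatoMir1005890965 began 3 nt later on the 3′ arm. The star ends were set from the mature ends by the overhang, so a matching shift on the opposite arm follows from the cut and was not measured. MIR171C and MIR171E had the register of MIR171A, MIR171D had that of MIR171B, and MIR479 was shifted by 4 nt. PotatoMir1005891017 of MIR171D had no difference from the star sequence of MIR171A over 18 overlapping bases, but began 3 nt later and therefore had the seed of PotatoMir1005890965.

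Each of the 3 loci of the pair met the duplex criteria of the study, which require strands on opposite arms with no more than 4 mismatches between them and allow 1 asymmetric bulge that does not exceed 2 nt. This was the case for 266 of 324 loci of the list (82.1%). With G:U pairs counted as mismatches MIR171C had 5 and no longer met the criteria, and 174 loci of the list did. The prediction itself used the folds, and the study had already filtered its predictions by these criteria. This therefore describes the hairpins and is no independent test of them. The counts of loci given here rest on new folds and star cuts, and why other loci failed was not tested. The 2 nt overhang was set by the cut.

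In the MIR171B duplex, 17 of the 19 mature bases before the overhang formed Watson-Crick pairs and 2 formed G:U pairs, at positions 8 and 10. No mismatch and no bulge was found. A duplex without mismatch or asymmetric bulge was found at 40 of the 324 loci (12.3%), MIR171B included. In MIR171A there were 15 Watson-Crick pairs, 2 G:U pairs at positions 9 and 12, and 2 mismatches at positions 8 and 16 of the mature sequence. Both mismatches set a C of the mature sequence against a U of the star sequence. They were the same in MIR171C, which had 14 Watson-Crick pairs and 3 G:U pairs, because the base that differs between the loci formed a further G:U pair at position 6. For comparison, MIR479 had 19 Watson-Crick pairs, MIR171E had 6 G:U pairs without mismatch, and MIR171D had 3 G:U pairs and 1 mismatch at position 19. No asymmetric bulge was found in any of the 6 duplexes. The mature sequences of the pair are repeated here with the bases that mismatch or form a G:U pair in capitals, to show where they lie in the duplex.
MIR171A: tattggcCTggTtcaCtcaga
MIR171C: tattgGcCTggTtcaCtcaga
MIR171B: ttgagccGcGtcaatatctct
At the 5′ end of the mature sequence, 0 of the first 4 positions held a G:C pair in MIR171A and MIR171C and 1 in MIR171B. At the 5′ end of the star sequence this was 1 of 4 positions in each. In MIR171A and MIR171C the position 4 of the star sequence was a mismatch.

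**Figure D2:**
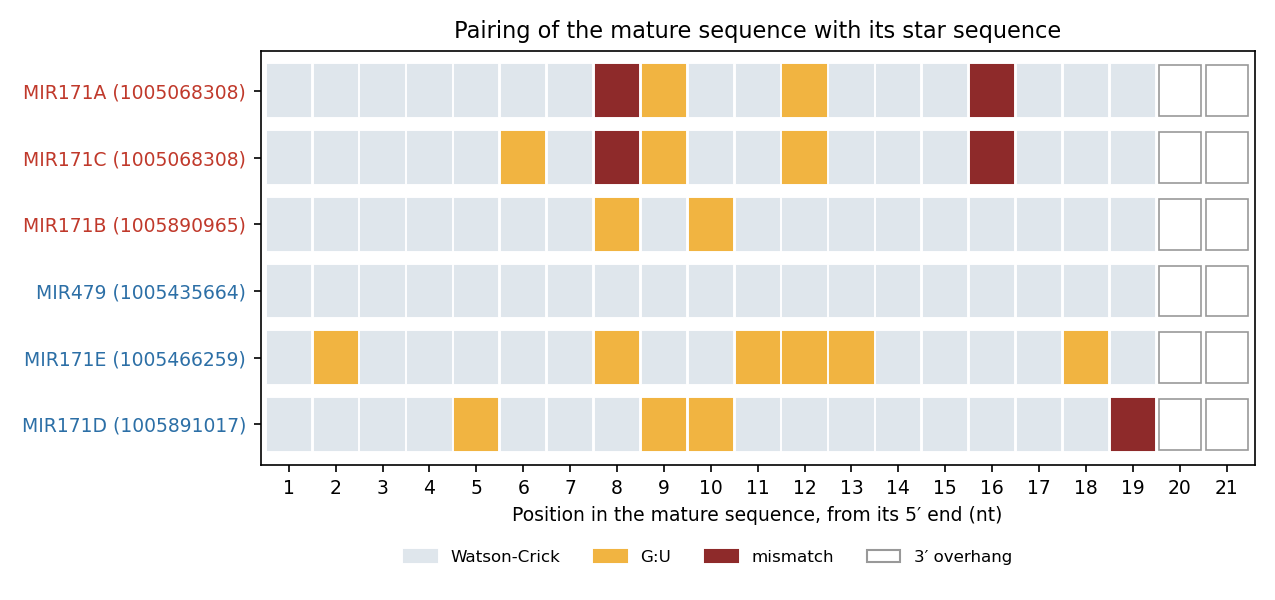
Pairing of each mature base with the star sequence for the 6 miR171 loci, by position from the 5′ end of the mature sequence. MIR171A and MIR171C share mismatches at positions 8 and 16, whereas MIR171B has G:U pairs at positions 8 and 10 and no mismatch.

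Whole precursors were also compared. With RNAfold the MIR171B precursor had 36 base pairs, a terminal loop of 8 nt and a minimum free energy of -51.50 kcal/mol. MIR171A had 33 base pairs and -33.20 kcal/mol although it was 5 nt longer, and MIR171C had 21 base pairs and -19.30 kcal/mol. Per nucleotide the values were -0.613 kcal/mol for MIR171B, -0.373 for MIR171A and -0.327 for MIR171C, against a median of -0.430 over all loci. Ordered from the lowest energy per nucleotide, MIR171B had rank 32, MIR171A rank 217 and MIR171C rank 262 of 324. MIR479, MIR171D and MIR171E were between MIR171B and MIR171A with -0.552, -0.449 and -0.445 kcal/mol. The G and C content was 38.1% in MIR171B, 38.2% in MIR171A and 42.4% in MIR171C, so that the precursor with the highest energy per nucleotide had the most G and C. The precursor of MIR171C was also short, since 43 of the 324 precursors were shorter and the median was 85 nt.

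**Figure D3:**
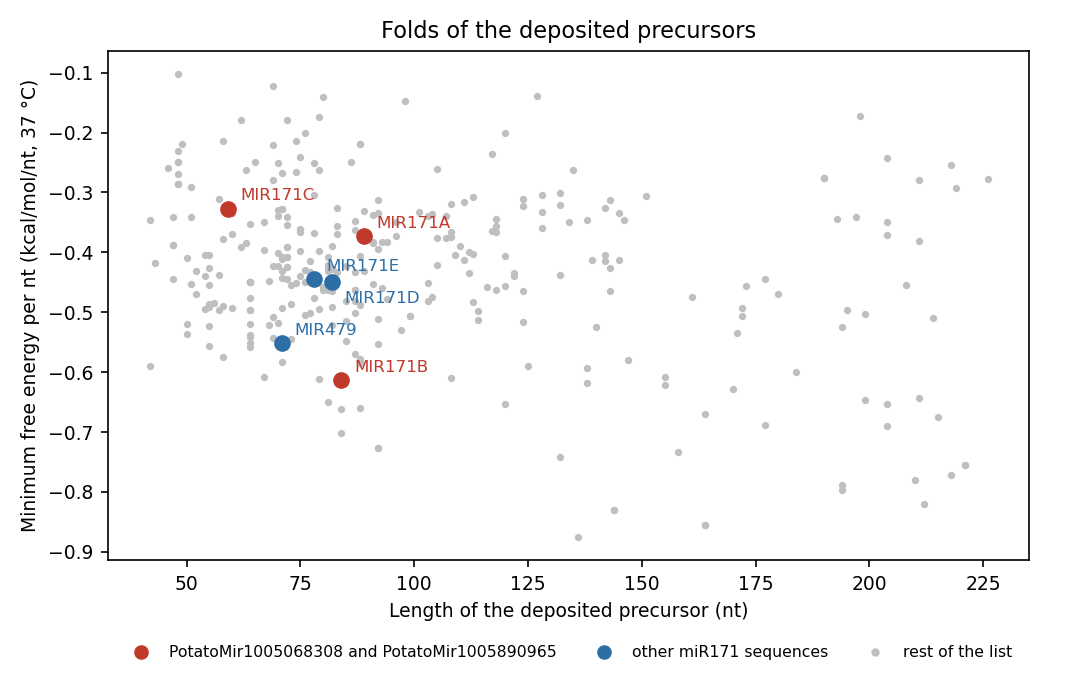
Minimum free energy per nucleotide of all 324 deposited precursors at 37 °C against their length in nt. MIR171B, at -0.613 kcal/mol per nt, has rank 32 from the lowest, whereas MIR171A and MIR171C lie above the median of -0.430.

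Predicted target sites were taken as sequences from the study's stricter target prediction and paired again with the deposited miRNAs. A score was summed over the first 17 nt of the miRNA, where a mismatch cost 1 and a G:U pair cost 0.5. Since the sites had been selected for their match with the mature sequence, the scores describe the sites and do not test them. No target RNA was measured here. The sites of PotatoMir1005890965 are shown 5′ to 3′ with the bases that do not form a Watson-Crick pair in capitals, because they hold the GRAS targets known for this family.
Hairy meristem (PGSC0003DMT400012104): gauauugGcgcggcucaa
GRAS family transcription factor (PGSC0003DMT400066799): agGgauauugGcgcggcucaa
Nodulation signaling pathway 2 protein (PGSC0003DMT400031475): agUgauauugGUUcggcucaa
Gene of unknown function (PGSC0003DMT400089207): gauauugaUgAggcucaa
The Hairy meristem and GRAS family sites both had a score of 0.5, from a single G:U pair at position 11 of PotatoMir1005890965. The GRAS family site had another G:U pair at position 19, outside the scored bases. The site in the transcript of nodulation signaling pathway 2, a GRAS protein known from legumes for its part in symbiosis, had a score of 2, with a mismatch at position 9 and G:U pairs at positions 10 and 11, and another mismatch at position 19 outside the scored bases. The transcript of unknown function had a score of 1.5, with a mismatch at position 8 and a G:U pair at position 10.

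For PotatoMir1005068308 the prediction listed 6 transcripts with 3 distinct sites, none of them annotated as a GRAS factor. They are shown in the same way, because no transcript was shared with PotatoMir1005890965.
Conserved gene of unknown function (PGSC0003DMT400001089, PGSC0003DMT400001091): agugaaUcaggcUaGuG
Conserved gene of unknown function (PGSC0003DMT400072987, PGSC0003DMT400072988, PGSC0003DMT400072989): UugagAgaGcUaggccaaua
Low-temperature-induced 65 kDa protein (PGSC0003DMT400077168): UuAaguAaGccaggccaauG
Each of these sites had a score of 2, as did the nodulation signaling site of PotatoMir1005890965. This equals the largest expectation value that the study's stricter prediction allowed, although the study's own values were not used here. The first had 4 G:U pairs and no mismatch. The second had a mismatch at position 15 and G:U pairs at positions 10, 12 and 20, and the third had mismatches at positions 14 and 18 and G:U pairs at positions 1, 12 and 20. Plant miRNAs guide cleavage between the target bases that face positions 10 and 11. Both positions formed Watson-Crick pairs at 1 of the 3 sites of PotatoMir1005068308 and at 0 of the 4 sites of PotatoMir1005890965, where a G:U pair stood at position 10, 11 or both. For the other miR171 sequences this was the case at 4 of 4 sites of PotatoMir1005435664, 3 of 5 of PotatoMir1005466259 and 3 of 4 of PotatoMir1005891017.

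PotatoMir1005890965 shared its Hairy meristem and GRAS family transcripts with PotatoMir1005466259 and PotatoMir1005891017, and its nodulation signaling transcript with PotatoMir1005435664 and PotatoMir1005891017. That is 2 of its 4 transcripts and 2 of the 6 of PotatoMir1005466259, 3 of 4 and 3 of 4 for PotatoMir1005891017, and 1 of 4 and 1 of 5 for PotatoMir1005435664. PotatoMir1005068308 shared none of its 6 transcripts with any of the 4 other sequences. PotatoMir1005435664 and PotatoMir1005466259, with 5 and 6 transcripts, also shared none with each other. How often other sequences of the list share predicted targets was not analysed. On the Hairy meristem site PotatoMir1005891017 also had a single G:U pair, but at position 9 and not at position 11, which are the positions of the C9T and T11C differences between these sequences.

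When each strand was placed without gaps on every site, the strands of the 3′ arm paired with the GRAS sites whether they were mature or star. On the 18 nt Hairy meristem site PotatoMir1005890965 formed 17 Watson-Crick pairs, the star sequence of MIR171A 17 and that of MIR171C 16, whereas PotatoMir1005068308 formed 8. The prediction for PotatoMir1005466259 gives this site with 21 nt, gauauuggcGcggcucaauca, with the base of its G:U pair in capitals. On it the star sequence of MIR171A formed 20 and that of MIR171C 19 Watson-Crick pairs, against 9 for PotatoMir1005068308. The star sequence of MIR171A has the sequence of PotatoMir1005466259, and that of MIR171C differs from it at 1 base. Their pairs on this site therefore follow from its selection and are no separate evidence. PotatoMir1005068308 was instead like the site itself, with 15 identical bases of 19 that overlapped. Over all 4 sites of PotatoMir1005890965, PotatoMir1005068308 formed 8 to 9 Watson-Crick pairs, and the star sequences of MIR171A and MIR171C formed 14 to 17 and 15 to 16. Conversely, PotatoMir1005890965 formed 8 to 9 pairs on the sites of PotatoMir1005068308, which itself formed 13 to 16 on these sites selected for it. The 5′ star sequences formed fewer pairs there, with 8 to 12 for MIR171B, 9 to 12 for MIR479 and MIR171E, and 9 to 11 for MIR171D. The 3′ star sequences of MIR171A and MIR171C formed 7 to 9 and 8 to 10.

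**Figure D4:**
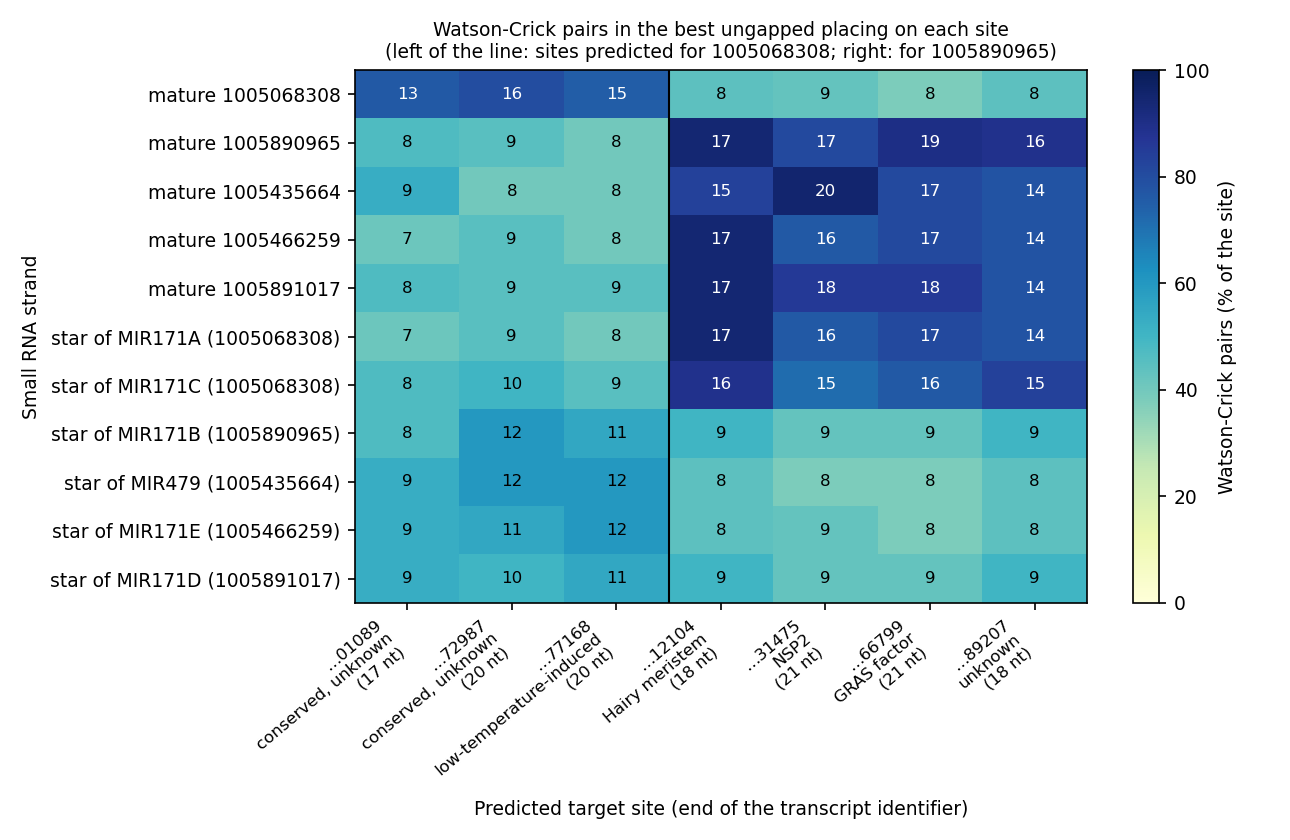
Watson-Crick pairs (numbers, and colour as percent of the site) of each mature and star strand of the miR171 loci in the best placing without gaps on the predicted sites of PotatoMir1005068308 (left) and PotatoMir1005890965 (right). The star sequences of MIR171A and MIR171C form 14 to 17 pairs on the sites of PotatoMir1005890965, where their own mature sequence forms 8 to 9.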

How the data were processed

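Small RNAs of 12 libraries were sequenced by the authors. They trimmed reads with Cutadapt (version 1.1 in the submitters' processing notes), removed other RNA classes, aligned the remaining sequences without mismatches to the DM superscaffolds, and predicted miRNAs with RNAfold and miRDeep-P from the pooled reads. The deposited list gives each read number as a whole count of identical reads, without normalization, inside the sequence identifier. Sequences that match several loci carry their full count at each locus. Libraries were assigned to groups by their titles, but no column holds single libraries, so no test between groups was made, and read numbers of tissues were not analysed here. The list holds 954147 reads, and the depth of each library is unknown.

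Precursors were folded with RNAfold (ViennaRNA 2.7.2). A star cut that fell on an unpaired base was set from the closest paired base up to 5 nt away. Names of miRNAs, target annotations and site sequences were taken from the study's tables, and no values. All loci of the pair, all other sequences named miR171, the nearest sequences outside miR171 and all transcripts of the stricter prediction for the pair are named. Members, lists and rules were chosen with earlier results of these data known. The second sheet of targets, with a relaxed prediction, was not used here. RefSeq names were found for all 6 miR171 loci. Python 3.11.15, NumPy 2.4.6, SciPy 1.17.1 and Matplotlib 3.10.9 were used, and the procedures were tested on simulated data. Alternatives changed the fold temperature, the structure, the treatment of G:U pairs, the star cut, the read minimum, the counting unit, the alignment and the bases scored.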

Additional observations from a re-analysis of the deposited data

How the results depend on the processing

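No paired analysis was possible because the list pools all libraries and holds no values of single replicates, and for the same reason no replicate could be left out. Folding at 20 °C left the base pairs of all 3 precursors and the mismatches of all 3 duplexes as they were, and changed the free energies to -46.31 kcal/mol for MIR171A, -26.91 for MIR171C and -66.47 for MIR171B, in the same order. The centroid structure had 30 base pairs in MIR171A and no change in MIR171C and MIR171B. The star cut from the precursor end was identical to that from the fold at all 3 loci. With G:U pairs counted as mismatches there were 4 in MIR171A, 5 in MIR171C and 2 in MIR171B, so that MIR171C no longer met the criteria, and 174 loci of the list did. Summed over loci the shares of reads were 0.0359% for PotatoMir1005068308 and 0.00259% for PotatoMir1005890965. A minimum of 5 reads also left fewer loci to count. Of the loci left, 211 met the criteria, and the shares of reads stayed within their intervals. The percentage of loci on the 5′ arm was 52.1 with this minimum and 50.5 over distinct sequences. Of 32 alternative counts of identical bases between strands, 22 stayed and 10 moved, by at most 5 bases, and 9 of these came from gaps. With gaps the mature sequences PotatoMir1005068308 and PotatoMir1005890965 shared 13 bases and not 9, which equals the value for the 5′ strands of both hairpins.

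With a G:U pair scored as 1, the target scores of PotatoMir1005068308 were 4 for PGSC0003DMT400001089 and PGSC0003DMT400001091 and 3 for its 4 other transcripts. Those of PotatoMir1005890965 were 1 for the Hairy meristem and GRAS family sites, 3 for the nodulation signaling site and 2 for PGSC0003DMT400089207. With all aligned bases scored, PotatoMir1005068308 had 2.5 for PGSC0003DMT400072987, PGSC0003DMT400072988 and PGSC0003DMT400072989 and 3.5 for PGSC0003DMT400077168, and PotatoMir1005890965 had 1 for the GRAS family site and 3 for the nodulation signaling site. The remaining scores did not change. Read numbers are limited by counting error, and no value has an error between replicates.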

Other observations

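Outside the sequences named miR171, the mature sequence nearest to PotatoMir1005890965 was PotatoMir1005188557 (22 nt, 12 reads), which shared 12 bases with it without gaps. The 3 nearest to PotatoMir1005068308 were PotatoMir1000102548 (929 reads), PotatoMir1001239442 (2 reads) and PotatoMir1002606682 (5 reads), all 24 nt in length, with 11 shared bases each. PotatoMir1002861308 (16 reads) and PotatoMir1002918071 (2 reads), also 24 nt, shared 11 bases with PotatoMir1005890965. PotatoMir1005068308 and PotatoMir1005890965 shared 9 bases without gaps and 13 with gaps. These values are those of a single pair, whereas the nearest sequences had the highest values over all sequences outside miR171. The numbers are therefore not directly comparable.

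The 8 letters TTGAGCCG, which are the first 8 bases of PotatoMir1005890965 and PotatoMir1005891017, were found on the listed strand in 6 of the 324 precursors (1.85%) and on the opposite strand in 0. They were in MIR171A, MIR171B, MIR171C, MIR171D and MIR171E and not in MIR479. The remaining precursor was that of PotatoMir1004465615 (3237 reads), a sequence that is not named miR171, where they lay near the 5′ end and outside the mature sequence. These precursors were selected by their folds, and a match of letters is a description.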
